A study of Homo sapiens with 15 samples.

Results

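The genes described here are 32 direct transcriptional targets of the tumour suppressor p53, chosen by symbol from the known p53 program and not by a threshold on values in these data. Of the 32, 31 had a row in the count table and all 31 passed the filter on low counts, out of 15510 gene rows and 13599 genes tested. SPATA18, a mitochondrial quality control gene, was not analysed here beyond its promoter window. When DNA is damaged or an oncogene drives the cell, p53 accumulates, binds DNA as a tetramer and raises genes that halt the cycle, repair DNA, prime cell death and switch p53 off again through MDM2. The retinal pigment epithelium is a quiescent monolayer behind the photoreceptors, and its cells in culture use this program to stop dividing after DNA damage. A truncated p53 that keeps the tetramerisation domain, such as the p53DD fragment, joins the cell's own p53 and prevents it from acting on these genes.

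Poly(A) RNA was sequenced in 15 libraries from 5 human lines, 3 per line, each from a separately thawed vial. ARPE19 is an established retinal pigment epithelial line and was not transfected. The 4 other lines all carry hTERT with murine p53DD and, by their labels, cyclin D1 with the CDK4R24C mutant. T53D4 carries nothing further and is labelled not transformed, as is ARPE19. RasV12 adds H-RasV12 and is labelled transformed, MekDD adds the active kinase MEK-DD and is labelled weakly transformed, and AKTmyr adds a myristoylated Akt and is labelled transformed. There is 1 line per construct, so the tests compare these lines against the spread between vials, not between independent transfections. No line carries p53DD alone. A comparison with ARPE19 therefore cannot tell p53DD apart from hTERT, cyclin D1, CDK4R24C, any added oncogene or the passage history of the lines.

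Depth ran from 20.63 to 46.55 M reads on genes. Reads on the cyclin D1 construct went against the label of T53D4, at 146 ± 32.1 CPM (read counts scaled to the size of each library; mean ± SD, n = 3) against 193 ± 41.6 in untransfected ARPE19, and the CDK4R24C construct stood at 92.2 ± 11.8 against 70.7 ± 12. MekDD held 270 ± 57.6 and 142 ± 13.7 CPM on these constructs, and RasV12 held 2350 ± 121 and 2380 ± 23.3. T53D4 and MekDD below therefore mean the libraries so labelled. Of the pigment epithelium markers, KRT8 and KRT18 were abundant in every line, RLBP1 had 2.93 to 5.01 CPM, and RPE65 had 0 reads in ARPE19 and T53D4 and at most 12 reads in any line. Of the markers of other cell types, some had line means of at most 0.311 CPM, namely PTPRC (leukocytes), PECAM1 and CDH5 (endothelium), SOX10 (melanocytes) and DCN, LUM and PDGFRA (fibroblasts). They are only a part of the markers listed for these cell types and do not show such cells to be absent. Others were detected: 6 such markers passed the filter on low counts, with 96.4 to 369 CPM summed per library. Most of that sum was CD68, its highest values were in RasV12, and the neuronal gene SNAP25 was also detected in RasV12. Bulk RNA cannot separate fewer cells of a kind from less RNA per cell.

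Because p53 acts by binding DNA, the sites that can be read in the members' promoters are shown first. The p53 half-site, a 10-base motif that reads alike on both strands, was searched in windows from 250 bases before to 50 after each RefSeq start (GRCh38.p14), as 2 half-sites at most 13 bases apart with at most 2 mismatches in all. Windows were found for 27 of the 32 listed members (42 windows), SPATA18 among them. None was found for RRM2B, TP53INP1, PHLDA3, TNFRSF10B and GADD45A. A pair lay in the windows of 6 members, and the best pair of each is printed 5′ to 3′ along the gene's strand, with the 4-base core of each half-site in capitals.
MDM2 (chr12:68808923-68808942, plus strand, intron): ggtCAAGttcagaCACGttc
DDB2 (chr11:47214979-47214999, plus strand, 5′ UTR exon): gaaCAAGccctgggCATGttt
PTCHD4 (chr6:48111198-48111217, minus strand, upstream): aggCTTGcccagaCTTGccc
AEN (chr15:88621306-88621325, plus strand, upstream): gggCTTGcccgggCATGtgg
FAS (chr10:88991309-88991328, plus strand, exon): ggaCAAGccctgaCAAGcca
FDXR (chr17:74872996-74873025, minus strand, 5′ UTR exon): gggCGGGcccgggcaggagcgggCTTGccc
The DDB2 and PTCHD4 pairs match without a mismatch, and DDB2 has 1 base between its half-sites. The pairs of MDM2, AEN, FAS and FDXR carry 2 mismatches each, and FDXR has a gap of 10 bases. The AEN pair lies 12 bases upstream of the gene's span in the deposited annotation, and the PTCHD4 pair 42509 bases upstream of it, at a start that only RefSeq places there. A pair was found in 16.7% of member windows and in 2.93% of all 35116 windows, and an exact half-site in 19.0% and 6.63%. The members were listed as known p53 targets, so this excess follows from how the list was made. The MDM2 pair is also counted in 2 overlapping windows. A match describes letters, and no binding was measured.

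The p53 targets were lower in the lines that carry p53DD. Against ARPE19, the mean of the 4 p53DD lines had 19 of 31 members called lower and 0 called higher by edgeR's quasi-likelihood test, at a Benjamini-Hochberg adjusted p under 0.05 over all genes tested. Among all 13599 genes, 7.43% were called lower and 3.94% higher in this comparison. DESeq2 also called 0 members higher, and 0 were higher at an unadjusted edgeR p under 0.05. The members' median log2 fold change was -0.55, 30 of 31 had a negative value, and the median of all genes was 0.00. In 11 members (MDM2, CCNG1, BTG2, SESN1, XPC, FAS, EDA2R, TRIAP1, RPS27L, TIGAR and FDXR) all 12 p53DD libraries lay below all 3 ARPE19 libraries, against 1.32% of all genes. For SESN1 that gap was narrow, since its lowest ARPE19 and highest AKTmyr libraries both round to 31.6 CPM. Summed over the 31 members, ARPE19 libraries held 3630 to 4006 CPM, T53D4 libraries 2742 to 2927, RasV12 libraries 2137 to 2456, MekDD libraries 2470 to 2596 and AKTmyr libraries 2704 to 3044. Leaving out 1 library kept 12 of the 19 calls every time, and the count fell to 12 without replicate 1 of ARPE19. The calls that could be lost were those of POLH, PHLDA3, DDB2, XPC, PPM1D, TRIAP1 and PLK2, with edgeR adjusted p of at most 0.191, 0.124, 0.148, 0.0985, 0.0894, 0.0832 and 0.0593, each also without replicate 1 of ARPE19. Without replicate 2 of ARPE19, all of these but PLK2 missed the threshold too, and POLH missed it without any 1 of 13 of the 15 libraries.

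**Figure D1:**
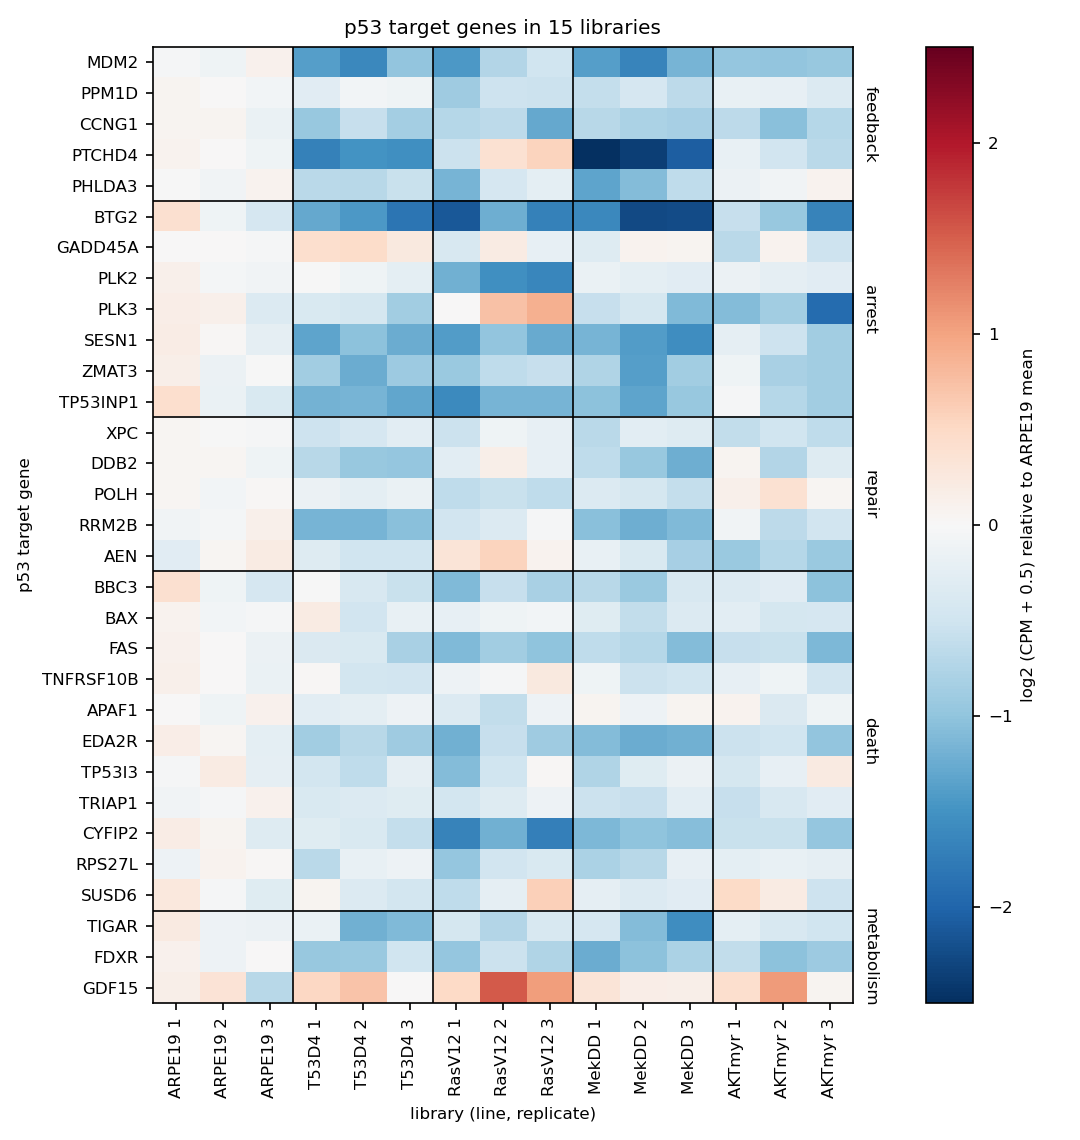
Level of 31 p53 target genes in each of 15 libraries, as log2 (CPM + 0.5) relative to the ARPE19 mean, with genes grouped by role on the vertical axis and libraries by line on the horizontal axis. Blue marks levels below the ARPE19 mean. The 12 libraries to the right are mostly blue. Red patches include PTCHD4, PLK3 and AEN in RasV12, POLH in AKTmyr and GADD45A in T53D4, and GDF15 lies above the ARPE19 mean in all 12.

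The murine p53DD construct was nearly absent from ARPE19, with 1 read in all 3 libraries together. By replicate, T53D4 held 73.8, 49.2 and 89 CPM, RasV12 held 121, 96.9 and 114, MekDD held 41.9, 27.9 and 27, and AKTmyr held 44.2, 49.6 and 81.4. RasV12 thus had the most p53DD RNA and MekDD the least, and the MekDD libraries lay below those of every other p53DD line. RasV12 exceeded MekDD by log2 1.78 (SE 0.27, edgeR adjusted p = 0.000502) and AKTmyr by 0.92 (SE 0.26, edgeR adjusted p = 0.0119). MekDD fell below T53D4 by 1.13 on the log2 scale (SE 0.26, edgeR adjusted p = 0.0221). The difference between RasV12 and T53D4 was log2 0.65 (SE 0.26, edgeR adjusted p = 0.0852). By their median, the members did not follow this order. Their median log2 level relative to ARPE19 was lowest overall in MekDD, at -0.67, -0.72 and -0.78, against -0.71, -0.53 and -0.37 in RasV12, -0.39, -0.47 and -0.55 in T53D4, and -0.25, -0.47 and -0.52 in AKTmyr. By summed level RasV12 was instead the lowest line, at 2137 to 2456 CPM per library against 2470 to 2596 in MekDD. PLK2 alone averaged 365 ± 59.4 CPM in RasV12 and 849 ± 33.4 in MekDD, a wider difference than that between the sums. The lower sum of RasV12 thus rested on this 1 abundant member. The lowest line thus depended on the measure. RNA level says nothing of how much p53DD protein each line held, which was not measured here.

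**Figure D2:**
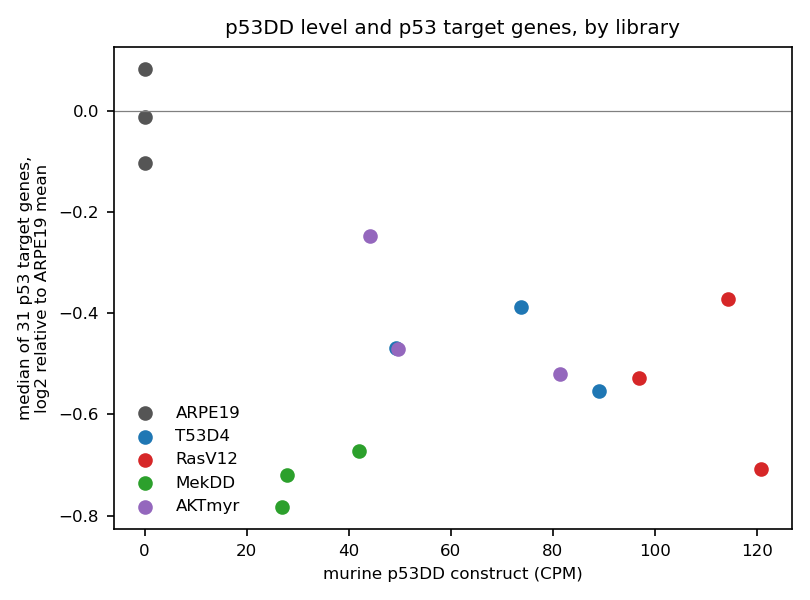
Median log2 level of the 31 p53 target genes relative to the ARPE19 mean (vertical axis) against the CPM of the murine p53DD construct (horizontal axis), 1 point per library, coloured by line. The 3 ARPE19 libraries stand at the left between -0.10 and 0.08. The MekDD libraries, with 27 to 41.9 CPM of p53DD, lie from -0.67 to -0.78.

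The genes grouped as feedback and signalling inhibitors, whose products restrain p53, AKT or hedgehog signalling, all fell in the mean of the p53DD lines (5 of 5). MDM2, the ubiquitin ligase that marks p53 for destruction (ENSG00000135679, hg38 chromosome 12, 68808177 to 68850686), stood at 151, 143 and 167 CPM in ARPE19. T53D4 had 58.9, 49.9 and 77.5, RasV12 had 56.6, 92.2 and 109, MekDD had 59.2, 48.4 and 68.3, and AKTmyr had 78.3, 77.4 and 79.9. No p53DD library reached the lowest ARPE19 library, and MDM2 fell by 1.13 on the log2 scale (SE 0.16, edgeR adjusted p = 0.000457). MDM2 shares 133 exon bases with the carboxypeptidase gene CPM on the other strand, and whether counting used strand is not stated.

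PTCHD4, a patched-domain membrane protein that dampens hedgehog signalling (ENSG00000244694, chromosome 6, 47878028 to 48068689), varied most between the p53DD lines. ARPE19 had 14.4, 13.7 and 12.6 CPM, T53D4 had 3.83, 4.51 and 4.38, MekDD had 1.87, 2.26 and 2.87, AKTmyr had 11.8, 9.64 and 8.29, and RasV12 had 9.13, 17.9 and 20.3. T53D4 and MekDD lay well below ARPE19 without overlap and AKTmyr just below it, while RasV12 spanned the ARPE19 range with 2 libraries above it. The mean of the 4 lines fell by 1.11 on the log2 scale (SE 0.18, edgeR adjusted p = 0.0018), a value that averages over these unlike lines.

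CCNG1, cyclin G1, which recruits a phosphatase to MDM2 (chromosome 5, 163437569 to 163446151), was among the most uniform. It had 562, 563 and 475 CPM in ARPE19 and between 220 and 357 in the 12 other libraries. T53D4 averaged 310 ± 41.9, RasV12 averaged 295 ± 64.9, MekDD averaged 313 ± 15.4 and AKTmyr averaged 308 ± 41.9 (SD, n = 3). It fell by 0.80 on the log2 scale (SE 0.13, edgeR adjusted p = 0.00123). PPM1D, the WIP1 phosphatase that reverses damage signalling to p53, fell by 0.41 (SE 0.09, edgeR adjusted p = 0.0141), with its lowest line mean, 16.7 ± 2.32 CPM, in RasV12 against 26.3 ± 1.25 in ARPE19. PHLDA3, which competes with AKT for membrane lipids, fell by 0.56 (SE 0.16, edgeR adjusted p = 0.0339). AKTmyr kept PHLDA3 at 121, 127 and 143 CPM, within reach of the 133, 127 and 144 of ARPE19, whereas MekDD had 53.5, 63.5 and 86.8.

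Of the 7 arrest and stress genes measured, 5 fell (BTG2, SESN1, TP53INP1, ZMAT3 and PLK2) and GADD45A and PLK3 did not pass the test. BTG2, an antiproliferative cofactor of mRNA deadenylation (ENSG00000159388, chromosome 1, 203305491 to 203309602), had the largest fall of any member, 1.56 on the log2 scale (SE 0.22, edgeR adjusted p = 0.000593). ARPE19 had 60.3, 42.3 and 33.6 CPM of BTG2, T53D4 had 18.4, 16.5 and 12.4, RasV12 had 10.1, 19.2 and 13.8, MekDD had 14.6, 9.08 and 9.3, and AKTmyr had 30.3, 23.3 and 14. All p53DD libraries lay below ARPE19, closest in AKTmyr replicate 1.

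SESN1, a sestrin that restrains mTORC1 (ENSG00000080546, chromosome 6, 108986437 to 109094819), had 42.1, 37.9 and 31.6 CPM in ARPE19. The T53D4, RasV12 and MekDD libraries held between 12.3 and 18.7 CPM, and AKTmyr held 31.6, 26 and 20.2. T53D4, RasV12 and MekDD thus lay far below the ARPE19 mean of 37.2 ± 5.29 and AKTmyr lay between. The overall fall was 1.09 on the log2 scale (SE 0.13, edgeR adjusted p = 0.000181). TP53INP1, an autophagy and stress protein, fell by 1.04 (SE 0.17, edgeR adjusted p = 0.00197). Against 44.5 ± 13.4 CPM in ARPE19, T53D4 averaged 19 ± 1.04, RasV12 averaged 17.9 ± 3.05, MekDD averaged 20.6 ± 2.81 and AKTmyr averaged 31.5 ± 10.5. ZMAT3, an RNA-binding zinc finger protein, fell by 0.81 (SE 0.16, edgeR adjusted p = 0.00512).

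The polo-like kinases PLK2 and PLK3 parted in the RasV12 line. PLK2 (chromosome 5, 58453982 to 58460139) held 1087, 959 and 940 CPM in ARPE19 and 813 to 983 in the T53D4, MekDD and AKTmyr libraries, but 432, 343 and 320 in RasV12. The fall of PLK2 in the mean of the p53DD lines, 0.50 on the log2 scale (SE 0.10, edgeR adjusted p = 0.00562), was drawn mainly from RasV12: against ARPE19 the log2 difference was -1.45 (SE 0.13, edgeR adjusted p = 5.11e-06) there, and PLK2 was not called in the other 3 lines. PLK3 (chromosome 1, 44800377 to 44805990) stood at 15.8, 26.6 and 29.4 CPM in RasV12 and at 17.8, 17.1 and 12.2 in ARPE19. T53D4 had 11.9, 11.4 and 8.33, MekDD had 10.4, 11.4 and 7.02, and AKTmyr had 7.13, 8.41 and 3.79. PLK3 shares 78 exon bases with a gene on the other strand. RasV12 thus had the lowest PLK2 and, in mean, the highest PLK3 of the 5 lines. GADD45A, a stress sensor that inhibits CDK1, had log2 -0.03 (SE 0.15, edgeR adjusted p = 0.94) in the mean of the p53DD lines. Its T53D4 libraries, at 211, 215 and 187 CPM, lay above the 158, 159 and 155 of ARPE19, a difference that was not called.

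**Figure D3:**
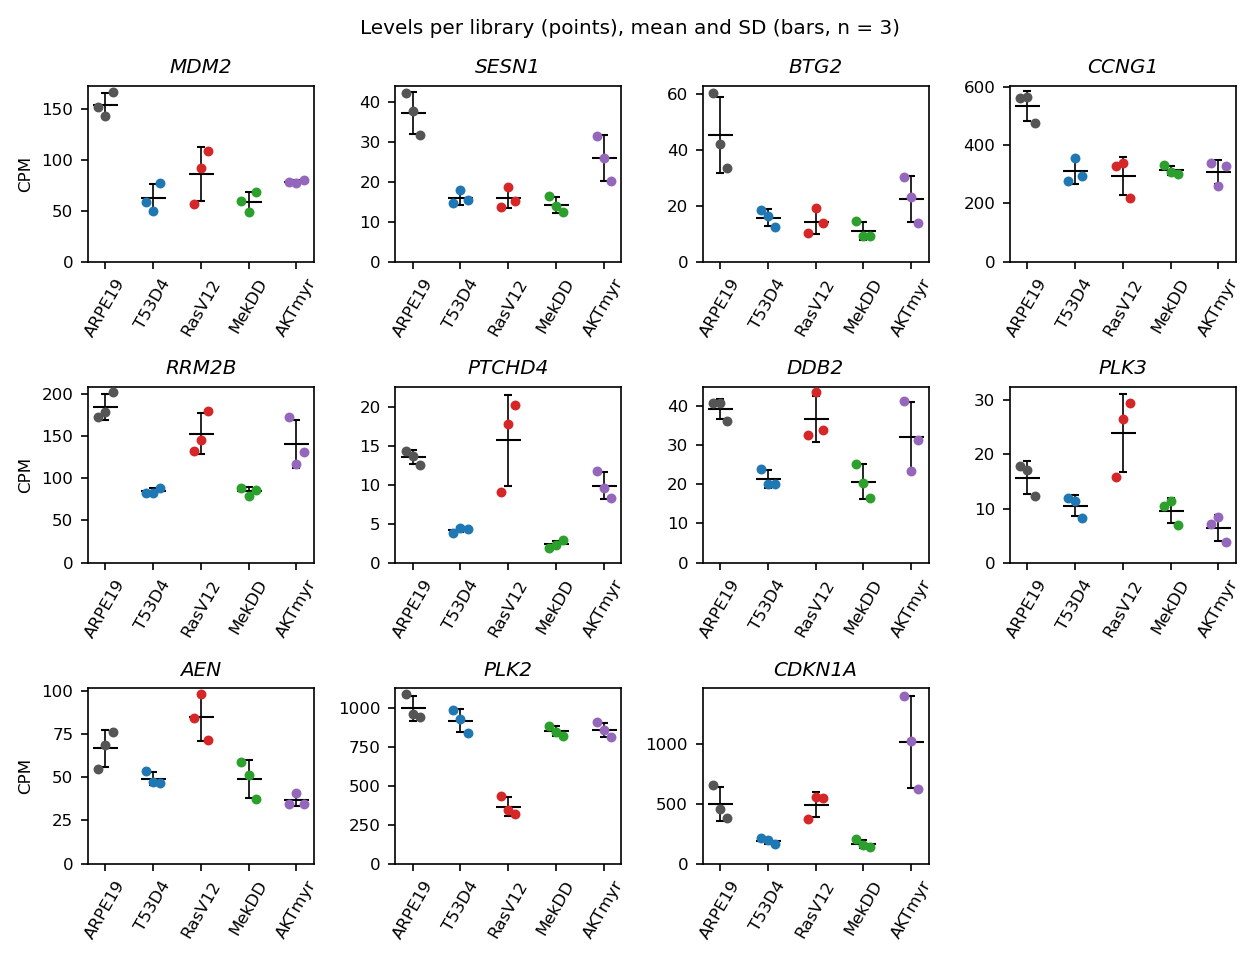
CPM per library for 10 p53 target genes and for CDKN1A, by line, with the mean and SD of 3 libraries. MDM2, SESN1, BTG2 and CCNG1 are lower in all 4 p53DD lines, RRM2B, PTCHD4 and DDB2 are lowest in T53D4 and MekDD, and PLK2 is lowest in RasV12.

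In DNA repair, 4 of 5 genes fell (XPC, DDB2, POLH and RRM2B) and AEN did not pass. RRM2B, the p53-inducible ribonucleotide reductase subunit that supplies nucleotides for repair (ENSG00000048392, chromosome 8, 102204502 to 102239118), had 173, 178 and 202 CPM in ARPE19. T53D4 had 82.2, 82.5 and 88.8 and MekDD had 88.6, 79 and 85.5, with a wide gap to ARPE19, while RasV12 had 132, 145 and 180 and AKTmyr had 173, 117 and 131. RRM2B fell by 0.73 on the log2 scale overall (SE 0.11, edgeR adjusted p = 0.000934). DDB2, which finds ultraviolet lesions and whose window holds the mismatch-free pair printed above, also had its lowest line means in T53D4 and MekDD. ARPE19 had 40.7, 40.7 and 36.1 CPM of DDB2, T53D4 had 23.9, 20 and 20, MekDD had 25.2, 20.2 and 16.4, RasV12 had 32.6, 43.5 and 33.9, and AKTmyr had 41.3, 23.3 and 31.4. The T53D4 and MekDD libraries lay below ARPE19, the other 2 lines overlapped it, and the mean of the 4 lines fell by 0.55 on the log2 scale (SE 0.15, edgeR adjusted p = 0.0329). XPC, the partner that opens damaged DNA, stood at 67.4, 64.6 and 63.7 CPM in ARPE19 and at 40.8 to 60.3 in the p53DD libraries, and fell by 0.42 (SE 0.10, edgeR adjusted p = 0.0172). XPC shares 413 exon bases with a gene on the other strand. POLH, the translesion polymerase eta, fell by 0.27 (SE 0.08, edgeR adjusted p = 0.0496), a call at the edge of the threshold, while its AKTmyr libraries, at 47.9, 57.1 and 45.2 CPM, lay above the 45.1, 41.9 and 44.6 of ARPE19 without a call. AEN, a nuclease of apoptotic cells, had its highest line mean in RasV12, 84.4 ± 13.5 CPM, and its lowest in AKTmyr, 36.7 ± 3.46, against 66.5 ± 10.9 in ARPE19, and log2 -0.35 (SE 0.13, edgeR adjusted p = 0.112) in the mean of the 4 lines.

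Of 11 cell death genes, 4 were called lower (FAS, EDA2R, CYFIP2 and TRIAP1), 0 were called higher, and all 11 had a negative log2 fold change, with a median of -0.38. FAS, a death receptor (ENSG00000026103, chromosome 10, 88990531 to 89017059), had 78.5, 73.3 and 65.3 CPM in ARPE19. T53D4 had 55.9, 55.5 and 41.1, RasV12 had 33.4, 39.2 and 36, MekDD had 46.6, 43.8 and 33.8, and AKTmyr had 48.3, 49 and 32.9. No p53DD library overlapped ARPE19, and FAS fell by 0.76 on the log2 scale (SE 0.13, edgeR adjusted p = 0.00223). FAS shares 380 exon bases with ACTA2 on the other strand. EDA2R, a receptor of the same family, fell by 0.89 (SE 0.13, edgeR adjusted p = 0.000589), from 49.1 ± 6.85 CPM in ARPE19 to 21.5 ± 1.25 in MekDD. CYFIP2, a subunit of the actin-regulating WAVE complex, fell by 0.92 (SE 0.13, edgeR adjusted p = 0.000434) and had its lowest libraries in RasV12, at 47.2, 65.6 and 45.8 CPM against 172, 159 and 121 in ARPE19. It shares 138 and 62 exon bases with AC008676.3 and ADAM19 on the other strand. TRIAP1, which protects cells from apoptosis, fell by 0.38 (SE 0.10, edgeR adjusted p = 0.0207).

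BAX and BBC3, which act at the mitochondrion, did not pass the test in the mean of the p53DD lines without the replicate block. BAX, which perforates the mitochondrion, had log2 -0.26 (SE 0.12, edgeR adjusted p = 0.174) and BBC3, the BH3-only protein PUMA, log2 -0.58 (SE 0.19, edgeR adjusted p = 0.0654, and 0.042 with the block). APAF1, the apoptosome scaffold, ranged only from 22.4 ± 3.88 CPM in RasV12 to 28.7 ± 2.2 in MekDD, with 28.6 ± 2.13 in ARPE19, and shares 750 exon bases with ANKS1B on the other strand. TNFRSF10B, the TRAIL receptor DR5, held 136 ± 23.4 to 180 ± 24.9 CPM across the 5 lines. TP53I3, an oxidoreductase tied to oxidative stress, and SUSD6, a membrane protein with antiproliferative action, were likewise not called, with line means of 12.3 to 16.9 CPM and 13.8 to 18.4 CPM. TP53I3 and TNFRSF10B share 80 and 67 exon bases with genes on the other strand. RPS27L had all p53DD libraries below ARPE19 but was not called without the block (edgeR adjusted p = 0.0838, and 0.0102 with it), and as a near copy of the ribosomal gene RPS27 its counts are uncertain.

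Among the metabolic targets, FDXR, the reductase that feeds electrons to mitochondrial cytochromes P450 (ENSG00000161513, chromosome 17, 74862497 to 74873031), was lower by log2 -0.85 (SE 0.13, edgeR adjusted p = 0.000738). It stood at 58.8, 49.9 and 55.4 CPM in ARPE19 and at 23 to 38.3 in the p53DD libraries, with no overlap. TIGAR, which lowers glycolytic flux, had 7.35, 5.66 and 5.54 CPM in ARPE19 and 1.77 to 5.48 elsewhere, without overlap but without a call unless the block was used (edgeR adjusted p = 0.0878, and 0.0116 with it), and 1711 of its exon bases are shared with another gene on its own strand. GDF15, a secreted stress cytokine, was the single member with a positive value, log2 1.02 (SE 0.52, edgeR adjusted p = 0.237). It had only 393 reads over all 15 libraries and 0.375 ± 0.298 CPM in ARPE19. Per kilobase of exon in ARPE19, PLK2 (214 CPM per kb) and CCNG1 (172) were the most abundant members and GDF15 (0.18) the least.

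T53D4 against ARPE19 asks what the immortalising plasmids change before an oncogene is added. Members called lower were MDM2, PTCHD4, SESN1 and RRM2B, 4 of 31, and 0 were called higher, where 0.118% and 0.0368% of all genes were called. The members' median log2 fold change was -0.45 and 29 of 31 were negative. PTCHD4 fell furthest, by 1.67 on the log2 scale (SE 0.26, edgeR adjusted p = 0.0302). RRM2B had the smallest adjusted p of the 4, at log2 -1.13 (SE 0.15, edgeR adjusted p = 0.0196), and MDM2 and SESN1 had log2 -1.31 (SE 0.22, edgeR adjusted p = 0.0399) and -1.22 (SE 0.18, edgeR adjusted p = 0.0302). Libraries with the same replicate number deviated together in this pair of lines, and with the replicate number as a block 12 members were called lower, adding FAS, TP53INP1, ZMAT3, DDB2, BTG2, FDXR, CCNG1 and EDA2R (edgeR adjusted p from 0.0169 to 0.0453). Of all 13599 genes, 131 were called lower and 101 higher with the block, against 16 and 5 without it. Leaving out 1 library gave 0 calls without replicate 2 of ARPE19 or any of the 3 T53D4 libraries, 1 without replicate 1 of ARPE19 and 2 without its replicate 3.

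The oncogene lines against ARPE19 share those 3 control libraries with one another and with the comparison above, so their counts are not independent. In RasV12, 15 members fell and GDF15 rose (log2 1.79, SE 0.61, edgeR adjusted p = 0.0402), against 16.2% of all genes lower and 14.4% higher, with a median of -0.57. The 5 largest falls were BTG2 (1.66 on the log2 scale, SE 0.32), CYFIP2 (1.51, SE 0.17), PLK2 (1.45, SE 0.13), TP53INP1 (1.32, SE 0.24) and SESN1 (1.23, SE 0.18), with edgeR adjusted p from 5.11e-06 to 0.00154. The rise of GDF15 was lost without replicate 1 or 3 of ARPE19 or replicate 2 or 3 of RasV12, with edgeR adjusted p between 0.0657 and 0.171. BBC3 was lost without replicate 1 of ARPE19 or replicate 1 or 3 of RasV12 (edgeR adjusted p up to 0.129), ZMAT3 without replicate 1 of either line (up to 0.0872), and RPS27L without replicate 2 or 3 of ARPE19 or 1 or 2 of RasV12 (up to 0.138). In MekDD, 17 fell and 0 rose, against 6.27% and 4.61% of all genes, with a median of -0.71, the lowest of the 4 lines. PTCHD4 (2.54, SE 0.27), BTG2 (2.05, SE 0.32), MDM2 (1.39, SE 0.22), SESN1 (1.39, SE 0.18) and EDA2R (1.19, SE 0.17) fell furthest on the log2 scale, with edgeR adjusted p from 5.22e-05 to 0.0014. The block added BAX, XPC, TIGAR and RPS27L in MekDD (edgeR adjusted p from 0.00705 to 0.0253). Leaving out replicate 2 of MekDD ended the calls of TP53INP1 (edgeR adjusted p = 0.0536) and ZMAT3 (0.0533), replicate 3 that of POLH (0.0581), and any MekDD or ARPE19 library other than MekDD replicate 3 that of TRIAP1 (0.0578 to 0.128).

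AKTmyr had the fewest falls of the 3 oncogene lines against ARPE19, 11 with 0 rises, against 8.86% and 7.98% of all genes, and a median of -0.42. Its largest falls on the log2 scale were PLK3 (1.28, SE 0.30), BTG2 (1.01, SE 0.31), MDM2 (0.97, SE 0.21), AEN (0.86, SE 0.17) and FDXR (0.85, SE 0.17), with edgeR adjusted p from 0.00426 to 0.04. The block added SESN1, RRM2B, BAX and ZMAT3 (edgeR adjusted p from 0.0175 to 0.042). Without replicate 2 of ARPE19 the count was 7, and BTG2 missed the threshold without replicate 1 or 2 of ARPE19 or 2 or 3 of AKTmyr, with edgeR adjusted p of 0.0793 to 0.134. CYFIP2 and EDA2R missed it without replicate 1 or 2 of ARPE19 or 3 of AKTmyr (0.0511 to 0.0591), and TRIAP1 without replicate 2 or 3 of ARPE19 or 1 or 2 of AKTmyr (0.0754 to 0.125).

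RasV12 and T53D4 differ in H-RasV12 and also in reads on the cyclin D1 construct (log2 4.01, SE 0.23) and the CDK4R24C construct (log2 4.69, SE 0.17), and the constructs' parts in this comparison cannot be told apart. Of 31 members, 5 were called higher (PTCHD4, PLK3, RRM2B, DDB2 and AEN) and 4 lower (PLK2, CYFIP2, PPM1D and POLH). Of all genes, 10.8% were called higher and 13.6% lower, shares near those of the members, and the members' median was 0.00. Of 6 markers of other cell types tested, 3 were called higher and 1 lower in the same comparison, and their part in it was not tested. PTCHD4 rose by log2 1.89 (SE 0.26, edgeR adjusted p = 0.00013), PLK3 by 1.18 (SE 0.30, edgeR adjusted p = 0.0102) and RRM2B by 0.85 (SE 0.15, edgeR adjusted p = 0.000886). DDB2 rose by log2 0.79 (SE 0.20, edgeR adjusted p = 0.0113) and AEN by 0.78 (SE 0.17, edgeR adjusted p = 0.00454). Of these 5, PTCHD4, DDB2 and AEN are among the 6 members with a p53 site pair shown above, and the other 3 of those 6 (MDM2, FAS and FDXR) were not called here. PLK3 had no pair in its window, and RRM2B had no window to search. The part of such sites in these calls was not tested. PLK2 fell by 1.33 on the log2 scale (SE 0.13, edgeR adjusted p = 1.02e-05), CYFIP2 by 1.08 (SE 0.17, edgeR adjusted p = 0.000429), PPM1D by 0.51 (SE 0.12, edgeR adjusted p = 0.00837) and POLH by 0.43 (SE 0.11, edgeR adjusted p = 0.00869). With the block MDM2 was also higher (log2 0.47, edgeR adjusted p = 0.0481), and FAS (-0.47, 0.00696) and GADD45A (-0.51, 0.0164) were lower. DDB2 missed the threshold without replicate 2 of RasV12 (edgeR adjusted p = 0.0559).

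MekDD also exceeded T53D4 in reads on the cyclin D1 (log2 0.89, SE 0.21) and CDK4R24C constructs (log2 0.62, SE 0.15). The constructs' parts cannot be told apart here either. In MekDD against T53D4, CYFIP2 fell by 0.64 on the log2 scale (SE 0.17, edgeR adjusted p = 0.0447) and the 30 other members did not pass. Few genes of any kind were called here, 2.83% of all genes lower and 2.27% higher, and the members' share was near these. The members' median was -0.17 and 26 of 31 were negative. PTCHD4, at 2.34 ± 0.506 CPM in MekDD and 4.24 ± 0.36 in T53D4, did not overlap between the lines. The CYFIP2 call was lost without any 1 of the 6 libraries, with edgeR adjusted p from 0.0528 to 0.152, and the block added PPM1D (-0.41, edgeR adjusted p = 0.0296).

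AKTmyr likewise exceeded T53D4 in reads on the cyclin D1 (log2 2.56, SE 0.22) and CDK4R24C constructs (log2 3.45, SE 0.16). In this comparison, 5 members rose (PTCHD4, RRM2B, TP53INP1, SESN1 and POLH) and GADD45A fell, against 9.91% and 10.2% of all genes, with a median of 0.09. PTCHD4 rose by log2 1.23 (SE 0.26, edgeR adjusted p = 0.00533), RRM2B by 0.73 (SE 0.15, edgeR adjusted p = 0.00455) and SESN1 by 0.70 (SE 0.18, edgeR adjusted p = 0.0166). TP53INP1 rose by 0.73 (SE 0.24, edgeR adjusted p = 0.0429), POLH rose by 0.38 (SE 0.11, edgeR adjusted p = 0.0229) and GADD45A fell by 0.70 on the log2 scale (SE 0.20, edgeR adjusted p = 0.0227). PTCHD4 and RRM2B kept their calls without any 1 library. SESN1, TP53INP1, POLH and GADD45A lost theirs without at least 3 of the 6 libraries, with edgeR adjusted p up to 0.0757, 0.214, 0.0954 and 0.112, and the rises numbered 2 without replicate 3 of T53D4 and 3 without its replicate 1 or 2 or replicate 1 of AKTmyr. The block added PHLDA3 (log2 0.58, edgeR adjusted p = 0.0114) and DDB2 (0.58, 0.0254) among the higher and PLK3 (-0.72, 0.049) among the lower.

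**Figure D4:**
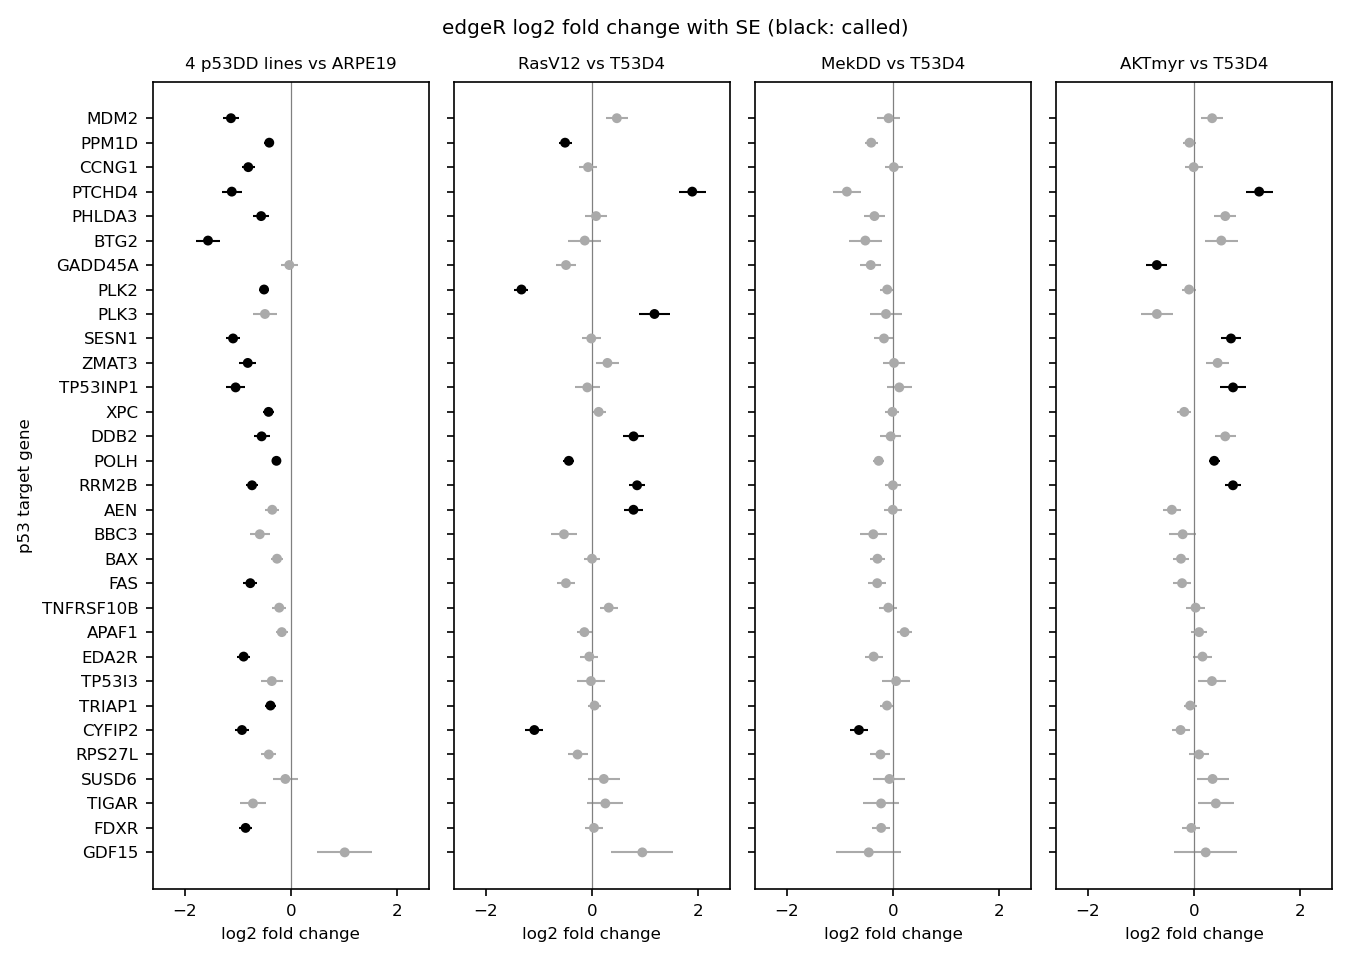
Log2 fold change with SE (edgeR) of 31 p53 target genes in the mean of the 4 p53DD lines against ARPE19 and in each oncogene line against T53D4; black points are called. Nearly all points lie left of 0 in the first panel, while RasV12 and AKTmyr have called genes on both sides and MekDD has CYFIP2 alone.

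The oncogene lines were then set against one another. They also differ in reads on the cyclin D1 and CDK4R24C constructs. These differences were log2 3.12 and 4.07 in RasV12 against MekDD, 1.45 and 1.24 in RasV12 against AKTmyr, and -1.67 and -2.82 in MekDD against AKTmyr. The constructs' parts in these comparisons cannot be told apart. RasV12 against MekDD had 5 members higher (PTCHD4, PLK3, RRM2B, DDB2 and AEN) and PLK2 lower, against 7.17% and 8.33% of all genes. PTCHD4 differed by log2 2.76 (SE 0.27, edgeR adjusted p = 1.83e-05), the widest gap of any member between lines, and PLK3 by 1.31 (SE 0.30, edgeR adjusted p = 0.00876). PLK2 fell by 1.22 on the log2 scale (SE 0.13, edgeR adjusted p = 4.03e-05). The block raised the lower count to 3, with APAF1 (-0.37, edgeR adjusted p = 0.0226) and CYFIP2 (-0.46, 0.0162), and added MDM2 (0.54, 0.0336) and GDF15 (1.38, 0.0464) to the higher. Of all 13599 genes, 1888 were called lower and 1700 higher with the block. DDB2 was lost without replicate 2 of RasV12 or 3 of MekDD (edgeR adjusted p = 0.0656 and 0.0629), and 2 members were lower without replicate 2 of RasV12.

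RasV12 against AKTmyr had 3 members higher and 6 lower, against 19.6% and 20.7% of all genes. PLK3 rose by log2 1.88 (SE 0.31, edgeR adjusted p = 0.000327), AEN by 1.20 (SE 0.18, edgeR adjusted p = 0.000147) and PTCHD4 by 0.67 (SE 0.25, edgeR adjusted p = 0.045). PLK2, CYFIP2, TP53INP1, POLH and SESN1 fell by 1.23, 0.83, 0.82, 0.81 and 0.71 on the log2 scale (SE 0.13, 0.17, 0.24, 0.11 and 0.18), and PPM1D fell by 0.42 (SE 0.12), with edgeR adjusted p from 1.24e-05 to 0.0153. The PTCHD4 call was lost without replicate 2 or 3 of either line, with edgeR adjusted p of 0.105 to 0.188, TP53INP1 without replicate 1 of either (0.0637 and 0.0853) and PPM1D without replicate 1 of RasV12 (0.0745).

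MekDD against AKTmyr had 8 members lower and 0 higher, against 13.5% and 12.7% of all genes, with a median of -0.33. PTCHD4 fell by 2.10 on the log2 scale (SE 0.27), BTG2 by 1.03 (SE 0.32), PHLDA3 by 0.94 (SE 0.21), RRM2B by 0.74 (SE 0.15) and SESN1 by 0.87 (SE 0.18), with edgeR adjusted p = 0.000117, 0.0279, 0.00523, 0.00305 and 0.00393. POLH, DDB2 and EDA2R completed the 8. The block gave 13 lower, adding TP53INP1, TIGAR, PPM1D, RPS27L and CYFIP2 (edgeR adjusted p from 0.0301 to 0.0494). Of all 13599 genes, 2725 were called lower and 2756 higher with the block. The lower count was 5 without replicate 2 or 3 of MekDD or replicate 1 of AKTmyr, where BTG2, DDB2 and EDA2R missed the threshold with edgeR adjusted p of 0.0877 to 0.156, and 1 member was called higher without replicate 3 of MekDD or replicate 2 of AKTmyr.

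By line mean, ARPE19 was the highest of the 5 lines for 22 of 31 members, RasV12 for 5, AKTmyr for 2, and T53D4 and MekDD for 1 each. The lowest mean was in MekDD for 14 members and in RasV12 for 11, against 4 in AKTmyr and 1 each in T53D4 and ARPE19. The same ranking was not made over all genes, so these counts have no background share beside them. MekDD had only 1 member called against T53D4, so most of its lowest places are not called differences from that line. RasV12 held some of the lowest means (PLK2, CYFIP2, POLH, FAS) and some of the highest (PTCHD4, PLK3, AEN).

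CDKN1A, the p21 inhibitor of cyclin-dependent kinases and best known p53 target, is no member but belongs beside them. It stood at 656, 458 and 378 CPM in ARPE19, while T53D4 had 216, 194 and 164, RasV12 had 371, 555 and 547, MekDD had 204, 152 and 140, and AKTmyr had 1398, 1027 and 623. T53D4 and MekDD were thus below ARPE19, RasV12 overlapped it, and AKTmyr reached above it. CDKN1A rose in AKTmyr by log2 2.41 against T53D4 (SE 0.29, edgeR adjusted p = 0.000172) and by 1.03 against ARPE19 (SE 0.28, edgeR adjusted p = 0.0228), and in RasV12 by 1.36 against T53D4 (SE 0.28, edgeR adjusted p = 0.00309). In T53D4 against ARPE19 it had log2 -1.38 (SE 0.28, edgeR adjusted p = 0.0966, and 0.02 with the block). No p53 site pair lay in its window. MDM4, the partner of MDM2 in restraining p53, held line means of 12.6 to 15.7 CPM and was called in none of the comparisons without the block. With the block it was higher in RasV12 against ARPE19 (log2 0.31, edgeR adjusted p = 0.0425).

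The wider pathway was read from further lists. Of 37 other p53 targets tested, 10 fell and 0 rose, with a median of -0.22: DRAM1, an autophagy gene, fell by 1.69 on the log2 scale (SE 0.23, edgeR adjusted p = 0.000365), VWCE by 2.29 (SE 0.32, edgeR adjusted p = 0.00055) and ACER2, a ceramidase, by 1.19 (SE 0.20, edgeR adjusted p = 0.00232). In RasV12 against T53D4 these 37 split into 9 higher and 4 lower, with SERTAD1 higher by log2 1.61 (SE 0.25, edgeR adjusted p = 0.000389) and DRAM1 lower. Of 34 cell cycle genes that p53 represses through p21 and the DREAM complex, 2 rose and 0 fell in the mean of the p53DD lines, a share near the 3.94% of all genes called higher there: E2F1 by log2 0.92 (SE 0.19, edgeR adjusted p = 0.00836) and AURKB by 0.66 (SE 0.17, edgeR adjusted p = 0.0203), with a median of 0.33 and 32 of 34 positive. Their summed level ranged from 2630 to 5298 CPM among the ARPE19 libraries alone, and the part of this spread in the members' differences was not tested.

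Genes that respond to other signals moved beside the members. Several members (GDF15, TNFRSF10B, BBC3) also answer to ATF4 and CHOP, the factors of the integrated stress response, and of 20 such genes 13 rose and 0 fell in the mean of the p53DD lines, with a median of 0.93 and summed levels of 1571 to 2111 CPM in ARPE19 and 2829 to 5160 in the p53DD libraries. TRIB3 rose by log2 1.97 (SE 0.43, edgeR adjusted p = 0.0097). Of 18 immediate early genes, which RAS signalling induces directly, 9 rose and 3 fell in RasV12 against T53D4, with a median of 0.83, EGR2 by log2 4.05 (SE 0.45, edgeR adjusted p = 2.23e-05). The part of either in the members' levels was not tested. Of 11 pigment epithelium markers tested, BEST1 rose and KRT8 and KRT18 fell in the mean of the p53DD lines. Their median log2 fold change there was 0.03, with 6 positive and 5 negative. Summed over these 11, ARPE19 libraries held 2456 to 2534 CPM, T53D4 libraries 1587 to 1945, RasV12 libraries 859 to 1041, MekDD libraries 1126 to 1404 and AKTmyr libraries 1336 to 2037. Abundant genes such as KRT8 and KRT18 weigh most in such a sum, so it does not describe all 11. Of 13 markers of other cell types in the table, 6 passed the filter. By edgeR 0 of these were called in that comparison (1 had an unadjusted p under 0.05), but 3 were called higher and 1 lower in RasV12 against ARPE19. The sum over these 6, mostly CD68, was 300 to 369 CPM in RasV12 against 96.4 to 210 in the other lines, and SNAP25, a neuronal gene, reached 8.38 CPM in RasV12. The part of these shifts in the members' differences was not tested.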

How the data were processed

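Poly(A) RNA was sequenced with directional paired-end libraries, per the labels' protocols. The authors deposited raw read counts per gene, and the submitters' processing notes name fastp 0.20.0, HISAT2 2.1.0, featureCounts 1.6.4 and hg38, without settings or the use of strand. From these counts, CPM with TMM factors were computed here, and edgeR 4.0.16's quasi-likelihood test (R 4.3.3) was run on the 13599 genes that passed filterByExpr (minimum count 10), with all 15 libraries and the line as factor. The 7 construct rows were kept out of the fit and library sizes. Log2 fold changes, their SE and Benjamini-Hochberg adjusted p-values over all genes tested were taken for 11 comparisons, and a gene was called under 0.05. The members and lists were chosen with earlier results of these data known. All members are named, with statistics for up to 5 called per direction and comparison, and MDM4, CDKN1A and up to 3 called genes per other list. Some results under this rule are not reported. Alternatives were RLE factors, no filter, a replicate block, construct rows kept, the 2 lines alone, DESeq2 1.42.0 and each library left out; leaving out all libraries of replicate number 1, or those of T53D4, was added after seeing the data. No 2 libraries of a line agreed within counting noise (chi-square per degree of freedom 33.3 to 146).

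Replicate numbers come from the labels. Of 30 pairs of same-numbered libraries, 28 had a correlation of deviations over 0.1 (median 0.34, lowest 0.0103, highest 0.722). Every pair passed this cut in 8 of the 10 line comparisons, and not in RasV12 with ARPE19 or AKTmyr. The split depends on the cut. The main tests used the line alone in every comparison, so this pairing enters only where the block is named. Same-numbered libraries correlated more than other-numbered ones in 2 of 3 pairs of RasV12 or MekDD with ARPE19. They did so in all 3 pairs of every other comparison, RasV12 with AKTmyr included.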

Additional observations from a re-analysis of the deposited data

How the results depend on the processing

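No member call reversed under any alternative, and 64 of the 106 member calls held under every one. With the replicate block, members called lower numbered 12 in T53D4 against ARPE19, 2 in MekDD against T53D4, 2 in AKTmyr against T53D4, 3 in RasV12 against MekDD and 13 in MekDD against AKTmyr, and 22 in the mean of the p53DD lines against ARPE19, which gained BBC3, TIGAR and RPS27L. In the same order, the block called 131, 843, 2434, 1888, 2725 and 1796 of all 13599 genes lower. In the 2 comparisons with a pair that did not pass the cut on correlation (lowest correlations 0.0103 and 0.0271) the block gave 19 lower in RasV12 against ARPE19 and 8 lower in RasV12 against AKTmyr. Of all genes, it called 3005 and 3585 lower there. In RasV12 against AKTmyr and MekDD against T53D4 the members' share called lower with the block was near that of all genes. The block ended no call. With the 2 lines alone, T53D4 against ARPE19 had 1 lower, RasV12 against ARPE19 had 0 higher, AKTmyr against ARPE19 had 7 lower, AKTmyr against T53D4 had 0 lower and MekDD against AKTmyr had 5 lower. DESeq2 called 11 lower in T53D4 against ARPE19 and 3 in MekDD against T53D4. Without all libraries of replicate number 1, T53D4 against ARPE19 had 2 lower, MekDD against T53D4 had 0 lower, AKTmyr against T53D4 had 3 higher and 0 lower, RasV12 against MekDD had 8 higher, and RasV12 against AKTmyr had 3 lower. Leaving out each library in turn gave, for the counts lower, 12 to 21 in the mean of the p53DD lines, 0 to 2 in T53D4, 12 to 18 in RasV12, 14 to 17 in MekDD and 7 to 14 in AKTmyr against ARPE19. Against T53D4 it gave 4 to 5 lower in RasV12, 0 to 0 in MekDD and 0 to 1 in AKTmyr, and 4 to 6 higher in RasV12, 0 to 0 in MekDD and 2 to 5 in AKTmyr. Between oncogene lines it gave 1 to 2 lower and 4 to 7 higher in RasV12 against MekDD, 4 to 7 lower and 2 to 4 higher in RasV12 against AKTmyr, and 5 to 9 lower and 0 to 1 higher in MekDD against AKTmyr. The count higher in RasV12 against ARPE19 was 0 to 1. The cause of these shifts was not tested. RLE factors, no filter and kept construct rows moved none of these counts by over 1.5 times. Depth limits GDF15, which had 393 reads in all.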
